A study of Mus musculus with 6 samples.

Results

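Mitophagy is the removal of damaged or surplus mitochondria by autophagy. The 9 genes described here encode the mitophagy receptors Bnip3, Bnip3l, Fundc1, Bcl2l13, Fkbp8 and Phb2, the kinase Pink1, and the adaptors Optn and Sqstm1. They were chosen by name, and all 9 were among the 17068 genes of the filtered count table after the Ensembl identifiers were paired with GENCODE M21 symbols. The counts are bulk RNA-Seq of lateral cortex at E12.5 from 6 female c57/bl6 embryos. The 4 controls lacked Cre and carried floxed Foxp1 alleles, with Foxp1 fl/+ in controls 1, 2 and 4 and Foxp1 fl/fl in control 3. The 2 libraries labelled Foxp1cKO came from Foxp1 fl/fl;Emx1Cre embryos, in which Emx1 directs Cre to the progenitors of the dorsal telencephalon and their descendants, so vessels, blood and microglia in the dissected tissue would keep Foxp1. The comparison asks how removal of Foxp1, a forkhead transcription factor, altered gene expression in the early cortex.

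Cells mark mitochondria for removal by several routes. Receptors in the outer mitochondrial membrane, such as BNIP3, its paralog NIX (encoded by Bnip3l) and FUNDC1, bind LC3 and GABARAP proteins on the growing autophagosome without a ubiquitin signal. In the other route PINK1 accumulates on depolarized mitochondria and phosphorylates ubiquitin, after which adaptors such as optineurin and p62 (Sqstm1) link the ubiquitin chains to LC3. Bnip3 and Bnip3l are classical targets of the hypoxia-inducible factor HIF-1, and NIX is best known for clearing mitochondria from maturing red blood cells.

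The counted reads ranged from 50076008 to 78346979 in the 6 libraries, and levels are given as CPM (each count over its library's TMM-scaled total, so that libraries of unequal depth can be compared). Differences were tested by the quasi-likelihood method of edgeR, and a gene passed at a Benjamini-Hochberg adjusted p under 0.05 over all 17068 genes. Foxp1 itself had 59.7, 60.8, 71.2 and 79.1 CPM in controls 1 to 4, and 83.2 and 76.8 CPM in libraries 1 and 2 labelled Foxp1cKO. The Foxp1 count was thus not lower under the Foxp1cKO label. A count over the whole gene includes reads outside the floxed exons, and every direction below rests on the labels. The controls least alike were 3 and 4, with a chi-square of 193 per gene between their counts.

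Of the 9 genes, only Bnip3 passed the threshold, and it was higher in the libraries labelled Foxp1cKO. Across all genes tested, 0.152% passed, all of them higher. Bnip3l was higher by a smaller amount and did not pass (adjusted p = 0.0747, edgeR). At an unadjusted p under 0.05, 2 of the 9 genes were higher and 0 lower, while 13% of all genes met this level (6.53% higher and 6.5% lower). None of the other 7 genes passed, and their estimated differences lay between -0.19 and 0.18 on the log2 scale. The tissue is bulk, so fewer cells of a type and less RNA per cell cannot be told apart.

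**Figure D1:**
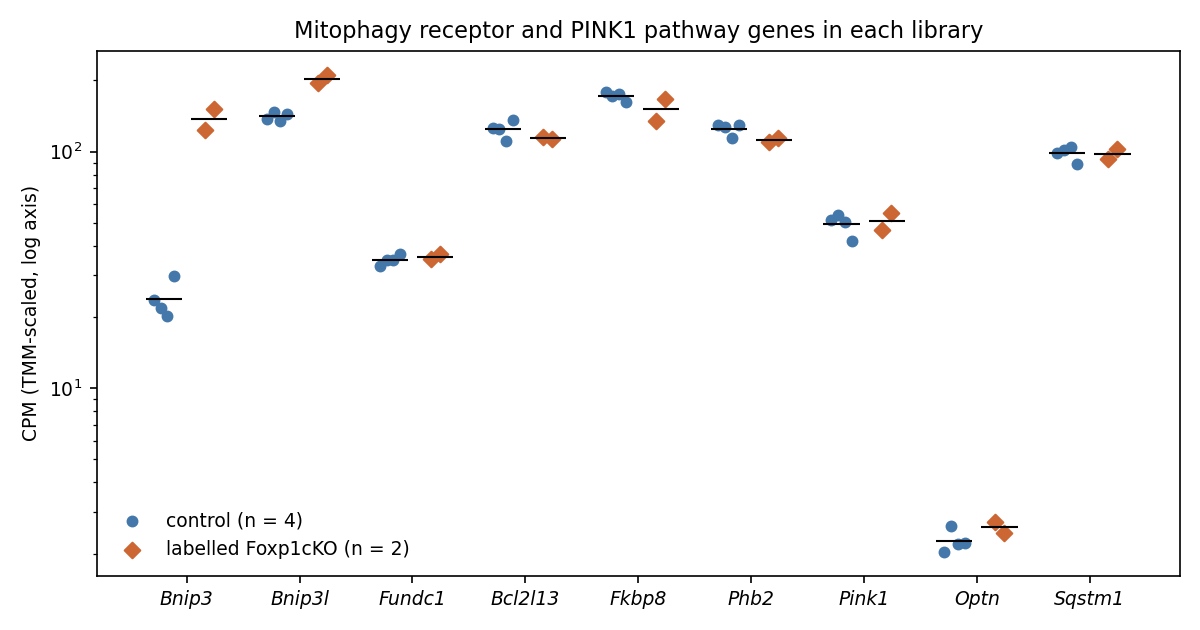
CPM on a log axis for each of the 9 genes, with 1 point per library (circles, 4 controls; diamonds, 2 libraries labelled Foxp1cKO) and a line at each group mean. Bnip3 moved from 20.2 to 29.9 CPM in the controls to 124 and 151 CPM. The groups overlapped for 6 of the 9 genes. Over all genes the groups were apart for 11.5% as higher and 13.1% as lower, and overlapped for the rest.

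Bnip3 (ENSMUSG00000078566.8, chromosome 7, 138890836 to 138909519, minus strand, GRCm38) encodes a single-pass outer membrane receptor of the BCL2 family that recruits LC3 through its cytosolic tail. Controls 1 to 4 had 23.5, 21.8, 20.2 and 29.9 CPM. The libraries labelled Foxp1cKO had 124 and 151 CPM, so the groups did not overlap and the lower of them was several times the highest control. The means were 23.9 ± 4.23 CPM (SD, n = 4) and 137 ± 19.7 CPM (SD, n = 2). This was a 5.76-fold difference with a 95% interval of 4.42 to 7.51, or 2.53 on the log2 scale (standard error 0.162, adjusted p = 0.00843, edgeR). By the unadjusted p Bnip3 ranked 2 of the 17068 genes. The size changed little between settings, but the call did not hold in each of them. Without control 2 the log2 fold change was 2.49 (adjusted p = 0.0660, edgeR), and without library 2 labelled Foxp1cKO it was 2.36 (adjusted p = 0.0579, edgeR). With the replicate number as a block it was 2.59 (adjusted p = 0.0709, edgeR). In that fit controls 3 and 4 have no library of the same number in the other group, so they do not inform the difference. An antisense gene, Gm45507, overlaps 504 exonic bases of Bnip3 on the other strand. The strand setting of the counting is not given in the sources used here.

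The Bnip3 promoter is shown because Bnip3 is the gene that passed and because its hypoxia response is well described. RefSeq windows of 250 bases before to 50 bases after the start site (GRCm38.p6) were found for 8 of the 9 genes. No window was found for Bnip3l, so its promoter was not searched. Each window was searched on both strands for ACGTG and GCGTG, the core letters of the hypoxia response element. The Fkbp8 window, which also holds both cores although Fkbp8 was not higher, is shown beside it. Capitals mark the cores as they fall on the printed strand, where CACGT and CACGC are the cores of the other strand. The Bnip3 stretch is chr7:138909507-138909756 on the minus strand and the Fkbp8 stretch is chr8:70527493-70527742 on the plus strand. Both are printed up to the base before the RefSeq start.
Bnip3: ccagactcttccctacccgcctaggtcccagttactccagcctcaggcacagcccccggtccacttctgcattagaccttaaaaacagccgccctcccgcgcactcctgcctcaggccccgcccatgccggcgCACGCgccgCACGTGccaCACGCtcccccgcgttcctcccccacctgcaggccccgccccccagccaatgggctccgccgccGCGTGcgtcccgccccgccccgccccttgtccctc
Fkbp8: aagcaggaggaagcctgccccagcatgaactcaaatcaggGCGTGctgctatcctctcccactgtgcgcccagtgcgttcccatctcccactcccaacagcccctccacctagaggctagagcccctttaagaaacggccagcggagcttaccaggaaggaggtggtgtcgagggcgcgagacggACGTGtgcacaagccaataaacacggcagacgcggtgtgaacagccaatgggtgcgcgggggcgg
The Bnip3 window held 5 matches, with first bases 117, 108, 107, 99 and 35 bases before the start. The matches at 108 and 107 are the same palindrome, CACGTG, read on each strand. At least 5 matches were found in 1.66% of all 32851 promoter windows of this length, ACGTG in 19.6% and GCGTG in 32.4%. Both cores were in 8.24% of all windows and at least 1 of them in 43.8%, beside 6 of the 8 windows searched here. Fkbp8 had 1 match of each core, Phb2 had 1 of ACGTG, Pink1 and Bcl2l13 had 1 of GCGTG and Optn had 3 of GCGTG. The windows of Fundc1 and Sqstm1 held neither core. The CLEAR motif of TFEB, present in 0.326% of all windows, and the forkhead letters TGTTTAC, present in 3.65%, were in none of the 8 windows. A match describes the letters alone and is no evidence of binding.

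Bnip3l (ENSMUSG00000022051.15, chromosome 14, 66985239 to 67008877) encodes NIX, the paralog of BNIP3. Controls 1 to 4 had 137, 147, 135 and 145 CPM. The libraries labelled Foxp1cKO had 196 and 212 CPM, both above every control, a separation in this direction that 11.5% of all genes showed. The group means were 141 ± 5.74 CPM (SD, n = 4) and 204 ± 11.3 CPM (SD, n = 2). The fold difference was 1.45 with a 95% interval of 1.28 to 1.63, or 0.53 on the log2 scale (standard error 0.0737). Its adjusted p of 0.0747 (edgeR) was above the threshold and ranked 37 by unadjusted p. Bnip3l passed with DESeq2's Wald test (adjusted p = 1.4e-07), by which 3.27% of tested genes passed (2% higher and 1.27% lower), and without control 4 (adjusted p = 0.0490, edgeR). A processed pseudogene, Bnip3l-ps, was counted at 0.432 to 0.778 CPM, so few reads were assigned to it compared with Bnip3l.

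**Figure D2:**
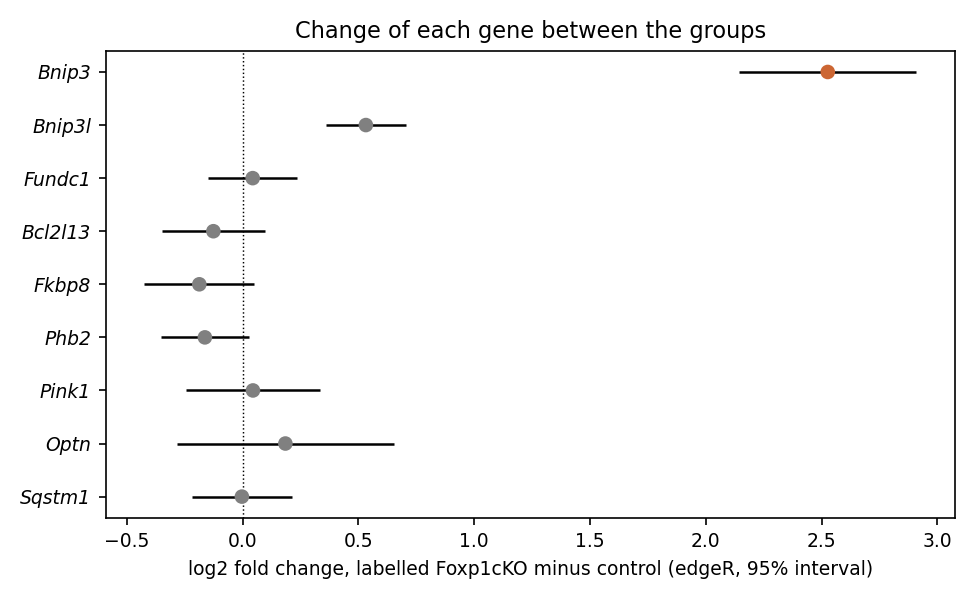
Log2 fold change of each of the 9 genes (libraries labelled Foxp1cKO minus controls) with its 95% interval from edgeR, coloured where the adjusted p was under 0.05. Bnip3 stands at 2.53 and Bnip3l at 0.53, and the intervals of the other 7 genes include 0.

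The paralogs were also compared inside each library, where library scaling cancels. Per kilobase of exon, the ratio of Bnip3 to Bnip3l was 0.293, 0.253, 0.255 and 0.352 in controls 1 to 4. In the libraries labelled Foxp1cKO it was 1.07 and 1.22. Bnip3 therefore made up 20.2% to 26.0% of the summed paralog level in the controls and 51.8% and 54.9% in the other group. On the log2 scale the mean ratio was -1.81 ± 0.223 (SD, n = 4) in the controls and 0.19 ± 0.128 (SD, n = 2) in the libraries labelled Foxp1cKO. The difference of 2.00 had a two-sided exact permutation p of 0.0667, which is the smallest p that the 15 splits of 4 against 2 libraries allow. Since this p cannot go under 0.05, the ratio is given as a description.

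FUNDC1 is an outer membrane receptor whose binding to LC3 is set by phosphorylation. Fundc1 (chromosome X, 17556564 to 17572325) was counted at 33.0, 34.9, 34.8 and 37.1 CPM in the 4 controls. The libraries labelled Foxp1cKO had 35.2 and 36.8 CPM, inside the range of the controls. Its fold difference was 1.03 with a 95% interval of 0.903 to 1.18 (adjusted p = 0.855, edgeR). A difference of the size seen for Bnip3l lies outside that interval.

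BCL2L13 is the mammalian counterpart of the yeast mitophagy receptor Atg32. Bcl2l13 (chromosome 6, 120836212 to 120892842) stood at 125, 125, 111 and 136 CPM in the controls, and at 115 and 113 CPM in the libraries labelled Foxp1cKO. Both of the latter lay between control 3 and the other controls. The fold difference was 0.916 with an interval of 0.786 to 1.07 (adjusted p = 0.593, edgeR). Bid overlaps 628 exonic bases of it on the other strand and had a mean of 12.6 CPM in the controls and 12.8 CPM in the other group.

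FKBP8 is an outer membrane immunophilin that recruits LC3A. Fkbp8 (chromosome 8, 70527724 to 70535328) had 178, 172, 176 and 163 CPM in the controls. The libraries labelled Foxp1cKO differed from each other, with 135 CPM in the first, below every control, and 167 CPM in the second, within their range. Its fold difference was 0.879 (95% interval 0.745 to 1.04, adjusted p = 0.470, edgeR).

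Prohibitin 2, encoded by Phb2 (chromosome 6, 124712336 to 124716950), sits in the inner membrane and becomes an LC3 receptor once the outer membrane ruptures. Controls 1 to 4 had 129, 127, 114 and 130 CPM, and control 3 stood apart. Phb2 was at 110 and 114 CPM in the libraries labelled Foxp1cKO, below every control, although the higher of them was close to control 3. Groups separated in this direction for 13.1% of all genes. The fold difference was 0.893 (95% interval 0.783 to 1.02, adjusted p = 0.437, edgeR). Its partner Phb, which encodes prohibitin 1, had 32.1 ± 2.26 CPM (SD, n = 4) and 25.3 ± 2.82 CPM (SD, n = 2) and did not pass either (adjusted p = 0.293, edgeR).

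Pink1 (chromosome 4, 138313409 to 138326307) encodes the kinase that starts the ubiquitin route. The level was 51.5, 53.8, 50.4 and 42.0 CPM in controls 1 to 4 and 46.8 and 55.1 CPM in the libraries labelled Foxp1cKO. The second of these was above all controls and the first was above control 4 alone. The fold difference was 1.03 (95% interval 0.844 to 1.26, adjusted p = 0.906, edgeR).

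Optn (chromosome 2, 5020642 to 5064051), which encodes the ubiquitin-binding adaptor optineurin, was the lowest of the 9 genes, with 126 to 185 counts per library. The controls had 2.03, 2.62, 2.20 and 2.22 CPM and the libraries labelled Foxp1cKO had 2.72 and 2.44 CPM. Its interval was the widest on the log2 scale, at a fold difference of 1.14 with a 95% interval of 0.822 to 1.57 (adjusted p = 0.724, edgeR), and a difference as large as that of Bnip3l lies inside it. Sqstm1 (chromosome 11, 50199366 to 50210827), which encodes the adaptor p62, stood at 99.1, 102, 104 and 88.4 CPM in the controls and at 93.3 and 103 CPM in the other group. The groups overlapped, and the fold difference was 0.998 (95% interval 0.859 to 1.16, adjusted p = 0.992, edgeR).

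To set the genes beside each other, CPM was divided by the length of the merged exons in kilobases (RPKM). In the controls Fkbp8 (38.0 RPKM) and Bnip3l (36.5 RPKM) led the order and each was the higher in 2 of the 4 controls. Phb2 followed at 33.7 RPKM, Sqstm1 at 29.3 RPKM, Pink1 at 18.5 RPKM, Fundc1 at 14.9 RPKM and Bcl2l13 at 13.7 RPKM. Bnip3 was next to last at 10.5 RPKM, below Bcl2l13 in all 4 controls, although the ranges of these neighbours overlapped. Optn was last at 0.605 RPKM. Under the Foxp1cKO label Bnip3 stood first at 60.7 RPKM, above Bnip3l at 52.8 RPKM in both libraries although their ranges overlapped. The means of the other 7 genes kept the order they had in the controls, although Phb2 was above Sqstm1 in 3 of the 4 controls and in 1 of the 2 libraries labelled Foxp1cKO. RPKM uses all annotated exons, so a gene whose cortical transcripts are shorter than the annotation is understated.

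The genes whose pattern over the 6 libraries was most like that of Bnip3 were sought among all genes with a mean of at least 10 counts. The measure was the root mean square difference of log2 CPM after each gene was centred on its control mean. The nearest were Depp1 (0.138), Kcne3 (0.202), Adm (0.218), Pdk1 (0.218) and Gm9869 (0.295). Pdk1, a kinase that inhibits pyruvate dehydrogenase, went from 56.0 ± 13.8 CPM (SD, n = 4) to 250 ± 28.1 CPM (SD, n = 2). Like Bnip3, Pdk1 was highest among the controls in control 4 and lowest in control 3, a likeness for which the measure selects. Kcne3 and Depp1 were also highest in control 4 but lowest in control 2. Among the controls Adm was highest in control 1 and Gm9869 in control 2. Adm, which encodes the vasodilator peptide adrenomedullin, went from 1.10 ± 0.177 CPM to 5.90 ± 0.723 CPM. Depp1, a FoxO target linked to autophagy, went from 0.998 ± 0.301 CPM to 5.66 ± 0.186 CPM. Kcne3, which encodes a potassium channel subunit, went from 1.05 ± 0.123 CPM to 7.10 ± 0.688 CPM. The antisense gene Gm9869 went from 0.150 ± 0.0292 CPM to 0.865 ± 0.212 CPM, with 8 counts in its lowest library. Since they were picked for likeness to Bnip3, their differences are a description and carry no test.

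Another 114 genes of autophagy and mitochondria, in 10 lists, were examined for the same comparison. None passed the threshold with edgeR, and 4 were higher and 15 lower at an unadjusted p under 0.05, a level met by 6.53% of all genes as higher and 6.5% as lower. Whatever the p, 34 had a positive and 80 a negative difference, and the median on the log2 scale was -0.087 (-0.14 without library 2 labelled Foxp1cKO). Over all genes 49.3% were higher and the median was -0.0044. By DESeq2, 0 of the 114 passed as higher and 2 passed as lower, Vcp and mt-Cytb, beside 1.27% of all genes tested by DESeq2. The differences ran from -1.01 to 0.62, well below that of Bnip3.

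**Figure D3:**
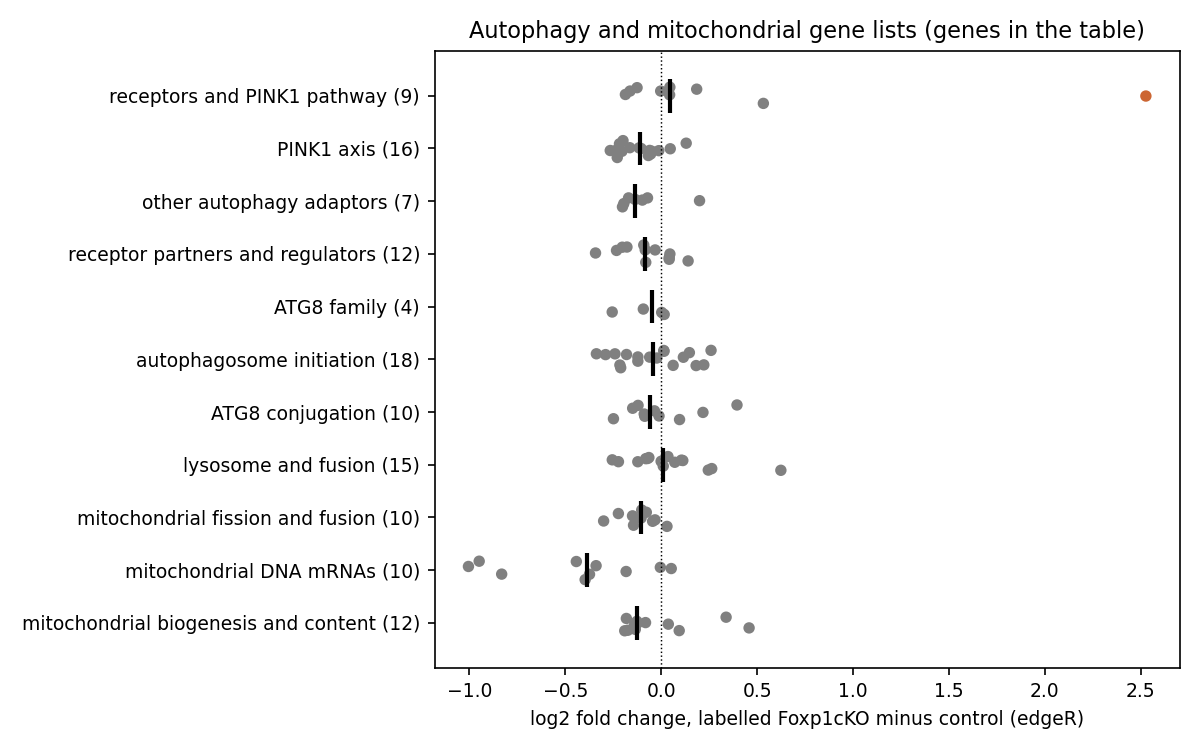
Log2 fold change of each gene (libraries labelled Foxp1cKO minus controls, edgeR) in the 9 genes described here and in 10 lists of autophagy and mitochondrial genes, with a bar at each median and the number of genes in brackets. Only Bnip3, coloured, had an adjusted p under 0.05, and the mitochondrial DNA mRNAs have the lowest median at -0.39. That list includes mt-Co2, mt-Co3 and mt-Atp6, which had at most 45 counts in any library.

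Of 16 other genes of the PINK1 axis, 2 were higher and 14 lower, with a median of -0.11 and 0 past the threshold (0 higher and 1 lower at an unadjusted p under 0.05). Vcp, which encodes the ATPase that extracts ubiquitinated mitofusins, had 466 ± 17.3 CPM (SD, n = 4) and 388 ± 10.7 CPM (SD, n = 2). Its log2 fold change was -0.27 (adjusted p = 0.270 by edgeR and 0.0260 by DESeq2). The 7 other autophagy adaptors had a median of -0.14, with Wdfy3 at 0.20 and Nipsnap2 at -0.20. Among 12 partners and regulators of the receptors, 4 were higher and 8 lower, with 0 past the threshold. Pptc7, a mitochondrial phosphatase that promotes the turnover of BNIP3 and NIX, had 28.8, 30.8, 29.2 and 29.6 CPM in the controls and 26.2 and 26.0 CPM in the libraries labelled Foxp1cKO (adjusted p = 0.398, edgeR).

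The LC3 and GABARAP proteins are what the receptors bind. Of the 4 genes of this family analysed here, 2 were higher and 2 lower, the groups separated for none, and their differences ran from -0.26 to 0.015. Map1lc3b was not analysed here. In 18 genes of autophagosome initiation the median was -0.042, with 8 higher and 10 lower. Wipi2, which recruits the conjugation machinery, had 99.8 ± 3.95 CPM (SD, n = 4) and 84.4 ± 1.31 CPM (SD, n = 2) and a log2 fold change of -0.24 (adjusted p = 0.287, edgeR). The median over 10 genes of LC3 conjugation was -0.061, and Atg10, an E2-like enzyme, was at 0.39 (adjusted p = 0.364, edgeR). Over 15 genes of the lysosome and its fusion the median was 0.011. Lamp2, a lysosomal membrane protein, had 66.2 ± 4.70 CPM and 79.5 ± 3.86 CPM, with a log2 fold change of 0.26 (adjusted p = 0.313, edgeR).

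For genes of the mitochondria themselves, 0 passed the threshold in each of the 3 lists. Of 10 fission and fusion genes 9 had a negative difference, 1 of them at an unadjusted p under 0.05, and Fis1, an outer membrane fission factor, had the largest separated difference at -0.30 (adjusted p = 0.288, edgeR). Of 12 genes of mitochondrial biogenesis and content 8 had a negative difference, 0 of them at an unadjusted p under 0.05. The exception with separated groups was Ppargc1a, the coactivator of mitochondrial biogenesis, at 13.9 ± 1.79 CPM (SD, n = 4) and 19.1 ± 2.83 CPM (SD, n = 2), a log2 fold change of 0.46 (adjusted p = 0.317, edgeR). Among 10 mRNAs of mitochondrial DNA 9 had a negative difference, 4 of them at an unadjusted p under 0.05, with a median of -0.39. The most abundant, mt-Co1, differed by -0.0047 on the log2 scale, mt-Nd2 by 0.052 and mt-Nd1 by -0.18, with overlapping groups for all 3. The cytochrome b mRNA, mt-Cytb, was at 2599, 2973, 2873 and 2664 CPM in the controls and at 2291 and 1928 CPM in the libraries labelled Foxp1cKO, below every control, with a log2 fold change of -0.40 (adjusted p = 0.270 by edgeR and 0.0416 by DESeq2). The list includes mt-Co2, mt-Co3 and mt-Atp6, which had under 1 CPM in every library although mt-Co1 had 5195 to 5764 CPM. Without library 1 labelled Foxp1cKO the median of the list was -0.49, and without library 2 it was -0.31.

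Markers of cell types in the tissue were also compared between the groups. All 9 measured markers of cortical progenitors and neurons were detected, and their sum overlapped between the groups, at 1646 to 2217 CPM in the controls and 1602 and 1849 CPM in the libraries labelled Foxp1cKO. The 9 erythroid markers summed to 1362, 1034, 1077 and 3056 CPM in controls 1 to 4 and to 3189 and 3547 CPM in the libraries labelled Foxp1cKO. Of these markers 8 of the 9 were higher, 0 passed with edgeR and Hba-a1 passed with DESeq2 (adjusted p = 0.0311). Hba-a1, Hbb-y and Alas2 were above every control in both libraries labelled Foxp1cKO, and the groups of the other erythroid markers overlapped. For comparison with this list and those below, the groups were apart as higher for 11.5% of all genes. Of the genes tested by DESeq2, 2% passed as higher. Hbb-y was the largest part of the sum, with 2340 CPM in control 4. Control 4, the highest control for these markers, had 145 CPM of Bnip3l and 29.9 CPM of Bnip3. The 6 mural cell markers summed to 80.1 to 108 CPM in the controls and to 123 and 140 CPM in the other group. All 6 had a positive difference and 0 passed with edgeR, the groups of Pdgfrb, Kcnj8 and Vtn overlapped, and Rgs5 passed with DESeq2 (adjusted p = 0.000712). The sums of the 7 endothelial markers overlapped, at 125 to 194 CPM against 187 and 228 CPM. Of these markers 5 had a positive and 2 a negative difference. Flt1 and Pecam1 were above every control in both libraries labelled Foxp1cKO. Flt1 alone passed the threshold with edgeR (adjusted p = 0.0179, edgeR). Both passed with DESeq2 (adjusted p = 6.96e-16 for Flt1 and 0.0287 for Pecam1, DESeq2). The groups of Cdh5, Kdr, Emcn, Tek and Cldn5 overlapped, and Tek and Cldn5 were those with a negative difference. The microglial sums also overlapped, at 18.2 to 28.5 CPM and 26.7 and 27.3 CPM. Ventral telencephalic markers were highest in control 3, at 629 CPM, against 173 to 268 CPM in the other controls and 414 and 297 CPM in the libraries labelled Foxp1cKO. No marker of these 6 lists was at 0 in any library. The part of erythroid, mural and other cells in the Bnip3 and Bnip3l differences was not tested.

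**Figure D4:**
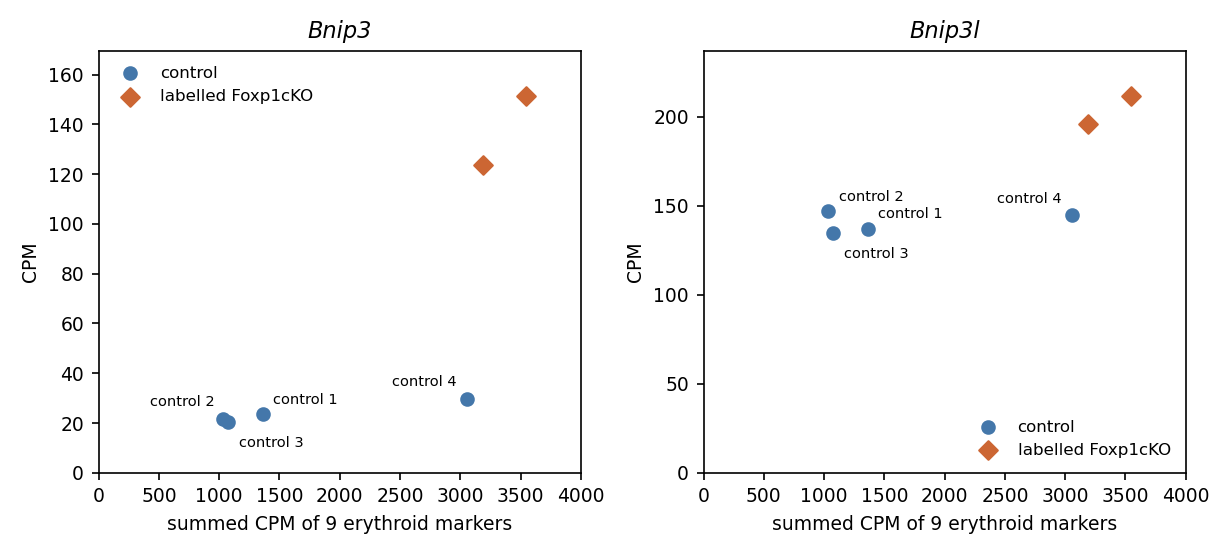
CPM of Bnip3 (left) and Bnip3l (right) against the summed CPM of 9 erythroid markers in each library (circles, controls; diamonds, libraries labelled Foxp1cKO). Control 4, at 3056 CPM of erythroid markers, has 29.9 CPM of Bnip3 and 145 CPM of Bnip3l, and both diamonds lie higher on both axes.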

How the data were processed

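RNA from E12.5 lateral cortex was sequenced as stranded paired-end libraries. The authors used STAR for alignment to mm10 and HTSeq 0.9.1 (union) for counting, then dropped genes below a minimum count. The deposited table gives whole, unnormalized counts. The authors also deposited VST values, a log2-like scale from DESeq2, used here only in limma. Groups and replicate numbers came from the labels. The litter in the authors' model was not used.

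Counts of all 17068 genes were fitted in R 4.3.3 with edgeR 4.0.16 (TMM, quasi-likelihood test, group alone, Benjamini-Hochberg adjustment, threshold 0.05). Standard errors are the log2 fold change over the root of F, with 95% intervals on the fit's degrees of freedom. Log2 CPM used a prior count of 2. DESeq2 1.42.0, limma 3.58.1, other scalings, a low-count filter, a robust fit, each library left out and the replicate number as a block were alternatives. The main fit, the other scalings, the robust fit, the block, DESeq2 and limma (on log2 counts) were tested on simulated data without a block effect. The low-count filter and the fits with a library left out were not. Gene positions and merged exon lengths came from GENCODE M21 (GRCm38), which held 17047 of the 17068 identifiers but is another release than the authors'. Promoters came from RefSeq.

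A floor of 3 counts was 0.0381 to 0.0596 CPM and covers counting error only. Replicates of a group are separate libraries, and chi-square per gene between them was 25.9 to 193, far above counting noise. P-values of the fits set the group difference against the spread between these libraries, estimated with information shared over genes. Litter was not in the fits, so a litter difference that follows the groups would be part of the group difference.

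The 9 genes and the lists were chosen with earlier results of these data known. Named genes were these 9, Foxp1, the 5 genes most like Bnip3, cell type markers, and in each list at most 4 genes per direction with the largest change among those whose groups did not overlap. Other genes (overlapping genes, a pseudogene, ATG8 genes and the mitochondrial mRNAs at the lowest levels) were named after their values were seen. Protein sequences were not used here. A further listed gene is not reported here and was left out of the counts.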

Additional observations from a re-analysis of the deposited data

Results flagged for a closer look

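In 6 of the 53 values examined in the 4 controls, the gap between the most extreme control and its neighbour, as a share of the controls' range, was above Dixon's 95% critical value. Chance gives about 1 in 20. For Phb2 the share was 0.840, with control 3 low. For Wipi1 it was 0.922, with control 3 low at 8.15 CPM. For Depp1 it was 0.918, with control 4 high at 1.45 CPM. For mt-Nd6 it was 0.941, with control 1 high at 62.3 CPM. For Csnk2b it was 0.856, with control 4 low, and for Gm9869 it was 0.836, with control 2 high.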

How the results depend on the processing

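Bnip3 kept its direction under all 13 alternatives, between 2.36 and 2.67, and passed in 10 of them. It did not pass without control 2, without library 2 labelled Foxp1cKO or with the replicate block (2.59). The number of the 9 genes past the threshold was 2 with DESeq2, 0 with the block and 0 to 2 with each library left out, against 1. Over all genes 26 passed, 503 with DESeq2, 0 with the block (3027 at an unadjusted p under 0.05) and 2 to 96 with each library left out. The deviations of same-numbered libraries correlated at -0.198 and 0.0157. With 2 libraries labelled Foxp1cKO, the values of the crossed numbers are these with the sign reversed. Whether the numbers pair the embryos therefore cannot be told from them. With the numbers crossed, a pairing added after the data were seen, 1301 genes passed, 2 of them among the 9. Leaving out a library labelled Foxp1cKO assumes that the lone library varies like the controls. Bnip3l kept its direction in all 13 alternatives (0.46 to 0.59, adjusted p from 1.4e-07 to 0.471, edgeR, DESeq2 and limma). The difference in the log2 ratio of the paralogs was 1.91 to 2.10 with each library left out. Differences near 0 changed sign. Sqstm1 was at 0.014 on total counts, 0.0013 with limma, 0.013 without control 2, 0.012 without control 3 and between -0.093 and 0.066 with each library left out. Fundc1 was at -0.00095 without control 1 and between -0.0060 and 0.076 with each library left out. Pink1 was at -0.026 without control 4, between -0.096 and 0.16 with each library left out and at -0.051 with the block. Of 42 other named genes 0 changed sign. They were named for groups that did not overlap or for likeness to Bnip3, so this was largely fixed by how they were picked. The median of the mitochondrial DNA mRNAs was -0.19 with limma on VST values. The cause of these changes was not tested.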
